A study of Mus musculus with 16 samples.

Results

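The transcriptome of costimulated CD8+ effector T cells that carried a control guide was examined by itself. The members were the 8 libraries of the group Control gRNA, chosen by their labels out of 16 libraries in the series, and no library of the remaining group entered any value. The cells were CD8+ T cells of the strain OT-1 Tg C57BL/6J, whose transgenic T cell receptor (TCR) recognizes the ovalbumin peptide SIINFEKL. They had been electroporated with the Cas9 nuclease complexed to a scrambled guide RNA and, after recovery, transferred into C57BL/6J mice. All recipients received the peptide as antigen together with agonist antibodies to OX40 and 4-1BB. CD8+ T cells were then sorted from spleen and lymph nodes, for which the labels give 4 days and the methods a shorter interval after stimulation. Per the methods, OT-I donors lacked Rag1 or Rag2 and differed from the recipients in CD45 alleles, the sort used CD8 and both CD45 alleles, and mice of both sexes and of a range of ages were used in the study. An untreated or antigen-only arm was not analysed here, so the levels describe antigen plus costimulation in cells that had also met Cas9, and no value says what any of these treatments changed. The study's text states that the sequenced cells were obtained from individual recipient mice, so a library stands for a recipient, although the labels do not tie libraries to mice or say whether donor cells were pooled before the transfer.

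An activated CD8+ T cell divides, takes up glucose and turns to lactate production, and becomes a cytotoxic lymphocyte that kills by releasing perforin and granzymes from granules or by the ligand FasL. OX40 and 4-1BB are receptors of the TNF receptor family that appear on activated T cells and, when engaged, prolong survival and expansion. The transcription factors T-bet and Eomes direct the effector program, while TCF-1 and LEF-1 are associated with naive and memory cells.

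Depth was even. Estimated counts in genes ranged from 73649630 in library 1 to 93893357 in library 5, and genes at 1 TPM or more ranged from 12365 in library 1 to 12759 in library 2. TPM is the share of a library's transcripts that a gene holds, made from the estimated count of each transcript over its length and summed per gene, so that levels of different genes can be set side by side. Libraries 1 and 2 stood apart: on the first principal component of 1000 genes, which carried 27.1% of the variance, they lay at -21.2 and -18.8, library 3 at -5.12, and libraries 4 to 8 between 5.93 and 13.3. Without libraries 1 and 2, the mean level of 7 of 313 named genes moved over 1.5 times. Among them were Gzmk, Gzmm, Eomes, Ctla2a, Samd3 and Il10, whose means over libraries 3 to 8 are given with their levels.

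**Figure D1:**
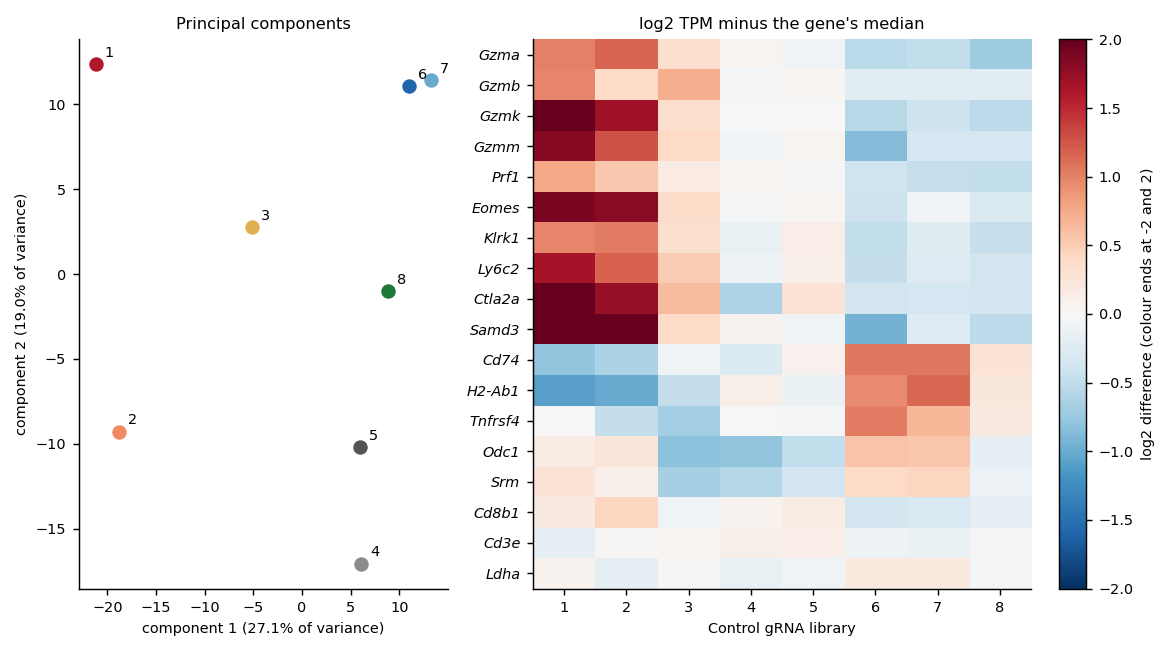
Left, the 8 Control gRNA libraries on the first and the second principal component of log2 CPM (counts scaled by library size) as component scores without a unit, which carried 27.1% and 19.0% of the variance. Right, the log2 TPM of 18 genes in each library minus the gene's median over the 8 libraries, with red for higher and blue for lower. Libraries 1 and 2 lie at -21.2 and -18.8 on the first component and are red for Gzmk, Eomes and Samd3, while Cd74 and H2-Ab1 are red in libraries 6 and 7.

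Of 22015 protein-coding genes of the nuclear genome, 9569 (43.5%) had at least 1 TPM in every library and 6932 were at 0 in every library. The median level was 0.350 TPM over all of them and 24.8 TPM over the 9569. Abundance was concentrated, with 498 genes holding 50% of the summed TPM of nuclear protein-coding genes. In all, 1582 genes had at least 100 TPM and 90 genes at least 1000 TPM in every library.

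Genes of the actin cytoskeleton led the ranking of nuclear protein-coding genes by transcript length. Tmsb4x, which encodes thymosin beta 4, a protein that binds actin monomers, was at rank 1 with 14682 TPM ± 1306 (SD, n = 8), from 12437 in library 6 to 16239 in library 4. Actb (cytoplasmic actin) followed with 7993 TPM ± 543, and the actin regulators Pfn1 (profilin), Cfl1 (cofilin) and Coro1a (coronin) stood at ranks 4, 6 and 7 with 5660, 3626 and 3490 TPM. Actg1, the other cytoplasmic actin, was at rank 9 with 3296 TPM. The ranks depend on the length used. With merged exon length in place of transcript length, Pfn1 had 3119 TPM, Cfl1 2248 TPM and Ldha 3177 TPM. By that measure B2m (4967 TPM) and Lgals1 (4567 TPM) lay above all of these. Metabolism entered the 20 highest genes with Ldha, which makes lactate from pyruvate, at rank 5 with 4249 TPM ± 421, and with the glycolytic enzyme gene Eno1 at rank 16 with 2696 TPM. Among the remaining places were the prolyl isomerase gene Ppia (5733 TPM), the galectin gene Lgals1 (3406 TPM), the MHC class I light chain gene B2m (3193 TPM), Eif5a (3051 TPM) and Eef1a1 (2824 TPM) of translation, the lymphocyte surface glycoprotein gene Cd52 (2909 TPM), the histone variant gene H2afz (2850 TPM), the ribosomal protein gene Rpl13 (2596 TPM), Crip1 (2685 TPM), the GTPase regulator gene Arhgdib (2676 TPM) and the ubiquitin gene Ubb (2565 TPM). Levels of Ppia, Actg1, Eef1a1, Eno1, H2afz, Rpl13 and Ubb are uncertain, since between 54.3% (Ppia) and 80.3% (Rpl13) of the 50-base stretches of their leading transcript also occur in other annotated genes, among which reads may have been divided.

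Markers of the CD8 T cell label were measured. All 4 markers exceeded 100 TPM in every library, with a median of 476 TPM over the list. That median was 0.350 TPM over all nuclear protein-coding genes and 24.8 TPM over those at 1 TPM or more in every library. The cells were OT-I cells sorted by CD8, so high CD8 and CD3 genes follow from the design and are no independent check of the label. Cd8b1, which encodes the beta chain of the CD8 coreceptor, had a lowest, median and highest level of 714, 919 and 1238 TPM, and Cd8a, its alpha chain partner, 252, 304 and 326 TPM. The Cd8b1 level was above that of Cd8a in all 8 libraries, with a log2 difference of Cd8a minus Cd8b1 of -1.63 (95% interval -1.78 to -1.47, exact sign-flip permutation test, adjusted p = 0.00911 over 28 gene pairs). Cd3e, a signalling chain of the TCR complex, ranged from 573 to 707 TPM with a median of 647 TPM. Gzmb, the fourth marker, is given among the granule genes. Cd4, the coreceptor of helper T cells, was at 0.124 TPM ± 0.130 (SD, n = 8) and listed at 0 in some libraries. In bulk RNA, fewer cells of a type and less RNA per cell cannot be told apart.

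Genes of the TCR complex and its proximal signalling were high, with 16 of 17 at 100 TPM or more in every library and a median of 450 TPM. Lck, the kinase bound to CD8, had 1121 TPM ± 75.0, and Lat and Zap70, which relay its signal, had 450 and 155 TPM. The invariant chains Cd3g and Cd3d had 723 and 399 TPM, and Cd247 (zeta) had 204 TPM. The constant gene of the alpha chain, Trac, had 3225 TPM ± 316 and Trbc2 of the beta chain 6052 TPM ± 367, whereas Trbc1 had 1752 TPM ± 168. Trbc1 lay below Trbc2 by 1.79 on the log2 scale (95% interval of Trbc1 minus Trbc2 -1.87 to -1.70, exact sign-flip permutation test, adjusted p = 0.00911). The 2 constant genes share 41.1% of the 50-base stretches of Trbc1 and 44.0% of those of Trbc2, so their split is uncertain.

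Few receptor segments carried most of the RNA. Trbv12-1 (GRCm38, chr6:41113550-41114067, plus strand), of the family also called V beta 5, had 3977 TPM ± 261, from 3627 to 4438 TPM, and took 99.8% of the summed TPM of 22 Trbv segments, from 99.7% to 99.9% over libraries. Members of the Trav14 family, also called V alpha 2, together took 97.0% to 98.6% of the Trav total. Within that family Trav14d-1 and Trav14n-1 had 815.5 and 814.7 TPM, and 100% of the 50-base stretches of each occur in other genes, so these near-identical copies cannot be separated. Among joining segments Traj33 led with 1182 TPM ± 154 and 64.3% of the Traj total, and Trbj2-7 led with 2178 TPM ± 137 and 37.6% of the Trbj total, from 32.6% to 42.3% over libraries. Their sequences are shown because they are the leading joining segments beside Trav14 and Trbv12-1, each at the end of the variable domain. The capitals mark the codons of Phe or Trp, Gly, any residue and Gly, a motif that 59 of 70 annotated transcripts of Traj and Trbj segments (84.3%) hold in some frame. Traj33 lies at chr14:54185358-54185414 and Trbj2-7 at chr6:41543810-41543856, both on the plus strand of GRCm38 and both exons of annotated TCR genes.
Traj33: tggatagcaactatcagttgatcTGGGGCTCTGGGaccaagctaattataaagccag
Trbj2-7: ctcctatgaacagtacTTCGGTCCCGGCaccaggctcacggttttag
These segments have 57 and 47 bases and the reads had 100, so their levels per length are coarse. Genes of the gamma and delta chains were lower: the constant gene Trdc had 47.0 TPM ± 9.31 and Tcrg-C4 had 36.3 TPM ± 24.1, from 20.5 to 91.6 TPM.

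Cytotoxic granule genes ranged from 0 to 2410 TPM on average. Of 19 genes, 15 had at least 1 TPM in every library and 7 at least 100 TPM, with a median of 33.7 TPM. Nkg7, a membrane protein of cytotoxic granules, was the highest, with a lowest, median and highest level of 1811, 2439 and 2931 TPM and rank 26 among nuclear protein-coding genes. Gzmb, the granzyme that activates caspases in target cells, had 312 TPM ± 110 (SD, n = 8). Its levels in libraries 1 to 8 were 514, 345, 436, 255.8, 268, 225, 227 and 226 TPM, so libraries 1, 2 and 3 lay above the other 5. Gzma, a granzyme with another cleavage specificity, had 189, 210, 117, 97.8, 90.0, 64.5, 66.8 and 57.3 TPM in the same order. Gzmk, a granzyme of early effector and memory cells, had 199, 123, 48.8, 38.4, 38.0, 26.0, 28.7 and 26.7 TPM. Its mean of 66.1 TPM became 34.4 TPM without libraries 1 and 2. Gzmm had 19.9 TPM over all libraries and 12.7 TPM without these libraries. Prf1, the pore-forming protein that lets granzymes into the target, had a lowest, median and highest level of 21.7, 30.3 and 52.1 TPM, with libraries 1 and 2 highest.

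Gzmb was the most abundant granzyme gene in every library. The log2 difference of Gzmb was 1.57 to Gzma (95% interval 1.24 to 1.87), 2.59 to Gzmk (2.05 to 3.09) and 3.27 to Prf1 (3.11 to 3.43), positive in 8 of 8 libraries in each case (exact sign-flip permutation test, adjusted p = 0.00911). Over libraries 3 to 8 the differences to Gzma and Gzmk were 1.73 and 2.98. Gzmc was at 4.02 TPM, Gzmf at 0.0274 TPM, and Gzmd, Gzme and Gzmg were listed at 0 in every library. Of the granule components, the proteoglycan gene Srgn had 355 TPM, the cathepsin genes Ctsw and Ctsc 386 and 181 TPM, and the granule membrane gene Lamp1 33.7 TPM. The protease inhibitors Serpinb9 and Serpinb6b, the former an inhibitor of granzyme B in the cell that makes it, had 222 and 116 TPM. The death ligands Fasl and Tnfsf10 (TRAIL) had 31.2 and 2.67 TPM. The summed level of the list ranged from 3352 TPM in library 7 to 5082 TPM in library 2, and its median coefficient of variation was 26.9% beside 11.4% over the 9569 genes at 1 TPM or more.

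**Figure D2:**
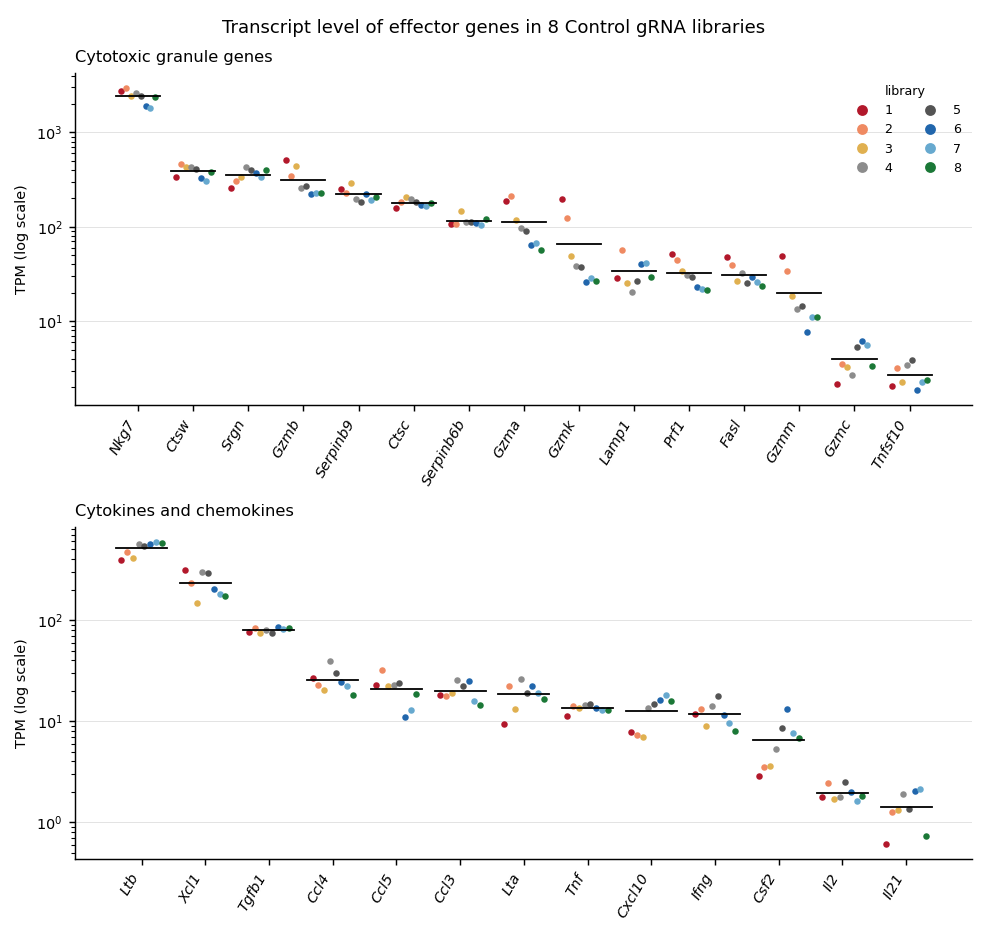
Transcript level (TPM, log axis) of cytotoxic granule genes (top) and of cytokine and chemokine genes (bottom) with a mean above 1 TPM, with 1 point for each of the 8 Control gRNA libraries and a line at the mean. Nkg7 lies at 2410 TPM and Ltb at 513 TPM, Gzmk runs from 26.0 to 199 TPM with libraries 1 and 2 on top, and Il2 lies at 1.95 TPM.

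Cytokine genes were mostly low in these cells. Whether the cells were stimulated again between sort and lysis is unclear, since the study's text mentions a stimulation after purification and neither its methods for this experiment nor the labels name one. Of 17 genes, 12 had at least 1 TPM in every library and 2 at least 100 TPM, with a median of 12.5 TPM. Ltb, the lymphotoxin beta subunit held at the cell surface, was highest with 513 TPM ± 79.6, and its partner Lta had 18.5 TPM. Xcl1, the chemokine that draws cross-presenting dendritic cells, followed with 230 TPM ± 63.6 and levels of 310, 234, 148, 299, 293, 205, 182 and 172 TPM in libraries 1 to 8. Ifng and Tnf, the main effector cytokines, had 11.9 TPM ± 3.15 and 13.4 TPM ± 1.16. Their difference was not called (log2 Ifng minus Tnf -0.21, 95% interval -0.49 to 0.07, exact sign-flip permutation test, adjusted p = 0.130). The chemokines Ccl3, Ccl4 and Ccl5, which attract T cells and myeloid cells, had 19.7, 25.5 and 20.8 TPM, and Ccl5 minus Ccl4 was -0.33 on the log2 scale (95% interval -0.79 to 0.13, exact sign-flip permutation test, adjusted p = 0.141). With merged exon length in place of transcript length both differences were called, at -0.32 for Ifng minus Tnf and -1.17 for Ccl5 minus Ccl4 (exact permutation test, adjusted p = 0.0337 and 0.00911). Tgfb1 had 79.8 TPM, Cxcl10 12.5 TPM and Csf2 6.45 TPM. Il2, the T cell growth factor, was at 1.95 TPM ± 0.338 and Il21 at 1.42 TPM. Il10 was at 0.118 TPM, and at 0.0488 TPM without libraries 1 and 2, which had 0.407 and 0.241 TPM, while Il3, Il4 and Il17a were listed at 0 in every library. The paper measured IL-3 and IL-17 protein secreted by control-guide cells after restimulation, which these RNA levels do not address.

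Among 24 transcription factors of T cell fate, 22 had at least 1 TPM in every library and 5 at least 100 TPM, with a median of 38.1 TPM. Id2, an inhibitor of E proteins that favours effector cells, was highest with 444 TPM ± 96.9, from 321 in library 7 to 570 in library 4. Batf, an AP-1 factor needed for effector expansion, had 380 TPM ± 39.6, Tbx21 (T-bet) 225 TPM ± 23.4 and Stat4, which carries the IL-12 signal, 224 TPM ± 18.5. Factors of naive and memory cells were present as well, with Id3 at 191 TPM ± 26.1, Tcf7 (TCF-1) at 115 TPM ± 21.03 and Lef1 at 68.6 TPM ± 8.40. Id2 lay above Id3 in 8 of 8 libraries, by 1.20 on the log2 scale (95% interval 0.93 to 1.43, exact sign-flip permutation test, adjusted p = 0.00911).

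Tbx21 and Eomes, the paired T-box factors of CD8 T cells, differed the most among the fate factors compared after Batf and Irf4. Eomes had 28.7 and 27.0 TPM in libraries 1 and 2 and between 5.83 and 9.94 TPM in libraries 3 to 8, and its mean of 12.6 TPM became 7.50 TPM without libraries 1 and 2. Tbx21 ranged from 184 in library 1 to 252 TPM in library 8, with library 1 lowest where Eomes was highest. Tbx21 exceeded Eomes by 4.43 on the log2 scale (95% interval 3.65 to 5.11, exact sign-flip permutation test, adjusted p = 0.00911), and by 4.93 over libraries 3 to 8. Irf4, a factor induced by TCR signalling that binds with Batf, had 11.8 TPM ± 0.783, a log2 difference to Batf of -4.995 (95% interval -5.12 to -4.80, adjusted p = 0.00911 by the exact permutation test). The opposed repressors Prdm1 (Blimp-1) and Bcl6 were low, at 4.98 and 1.80 TPM, with Prdm1 higher in 8 of 8 libraries by 1.42 (95% interval 0.94 to 1.81, adjusted p = 0.00911 by the exact permutation test). Hif1a had 130 TPM, Myc 91.3 TPM, Ikzf1 (Ikaros) 76.4 TPM, Klf2 64.6 TPM, Runx3 38.1 TPM, Ikzf3 38.2 TPM, Tox 28.5 TPM and Myb 25.5 TPM. Zeb2 (0.577 TPM) and Bach2 (0.996 TPM) had the lowest means of the list, and Foxo1 (4.10 TPM), Ikzf2 (4.60 TPM) and Zeb1 (6.30 TPM) were also low.

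The receptors engaged by the injected antibodies were both transcribed. Tnfrsf9, which encodes 4-1BB, had a lowest, median and highest level of 108, 125 and 148 TPM, and Tnfrsf4, which encodes OX40, 31.3, 50.1 and 101 TPM. Tnfrsf9 was higher in all 8 libraries, by 1.25 on the log2 scale (95% interval 0.77 to 1.71, exact sign-flip permutation test, adjusted p = 0.00911). Tnfrsf4 was the more variable of the pair, with 101 and 79.6 TPM in libraries 6 and 7 and at most 56.7 TPM in the others. Of 21 costimulatory and inhibitory receptor genes, 20 had at least 1 TPM in every library, 7 at least 100 TPM, and the median was 51.0 TPM. Besides 4-1BB, the costimulatory genes Cd27, Cd28, Tnfrsf18 (GITR), Cd226 and Icos had 249, 91.4, 84.2, 51.0 and 50.3 TPM. Pdcd1, the gene of the inhibitory receptor PD-1, had 266 TPM ± 25.5 and lay above the inhibitory receptor gene Lag3 (23.5 TPM ± 3.97) by 3.50 on the log2 scale in 8 of 8 libraries (95% interval 3.39 to 3.62, exact sign-flip permutation test, adjusted p = 0.00911). Cd160 had 202 TPM, Ctla4 34.1 TPM, Havcr2 (TIM-3) 32.5 TPM, Btla 26.3 TPM, Tigit 11.4 TPM and Entpd1 (CD39) 1.05 TPM. Of the NK-type lectin receptors, Klrc1 and Klrd1, which pair as NKG2A and CD94, had 374 and 185 TPM and Klrk1 (NKG2D) 206 TPM, while Klrg1, a marker of terminal effectors, had 4.46 TPM. Klrk1 had 339 and 354 TPM in libraries 1 and 2 and between 122 and 216 TPM in the others.

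Of 16 cytokine receptor genes, 14 had at least 1 TPM in every library and 3 at least 100 TPM, with a median of 38.2 TPM. The shared gamma chain Il2rg led with 1075 TPM ± 92.7, and Il2rb, the beta chain for IL-2 and IL-15, had 510 TPM ± 47.1. Il2ra, the chain that raises affinity for IL-2, had 56.4 TPM ± 12.1 and Il7r, a receptor of resting and memory T cells, 36.5 TPM ± 8.32. Il2ra was higher than Il7r in 8 of 8 libraries, by 0.63 on the log2 scale (95% interval 0.29 to 0.92, exact sign-flip permutation test, adjusted p = 0.00911). The chains of the interferon gamma receptor were unequal, with Ifngr1 at 240 TPM ± 19.0 and Ifngr2 at 0.429 TPM ± 0.207. Of the IL-12 receptor, Il12rb2 ranged from 19.5 to 51.6 TPM and Il12rb1 from 18.1 to 25.3 TPM, a log2 difference of 0.54 (95% interval -0.04 to 1.16, exact sign-flip permutation test, adjusted p = 0.0673) that was called over libraries 3 to 8 (0.78, exact permutation test, adjusted p = 0.035). Il21r had 87.4 TPM, Il18r1 and Il18rap 46.2 and 40.0 TPM, Ifnar1 41.4 TPM, Tgfbr2 21.1 TPM, Il15ra 14.1 TPM, Tgfbr1 3.08 TPM and Il6ra 2.50 TPM.

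Homing genes of lymphoid tissue and of inflamed sites were found side by side. Of 17 genes, 15 had at least 1 TPM in every library and 7 at least 100 TPM, with a median of 122 TPM. The selectin ligand gene Selplg (855 TPM ± 92.5), the integrin genes Itgb1 (845 TPM ± 144), Itgb7 (808 TPM ± 99.6) and Itgb2 (401 TPM ± 43.7) and the inflammatory chemokine receptor gene Cxcr3 (435 TPM ± 36.2) were highest. Ccr7, the receptor that leads T cells into lymph nodes, had 172 TPM ± 19.3, below Cxcr3 in 8 of 8 libraries (log2 Cxcr3 minus Ccr7 1.35, 95% interval 1.18 to 1.53, exact sign-flip permutation test, adjusted p = 0.00911). Cd44, the adhesion receptor by which antigen-experienced cells are usually gated, had 31.2 TPM ± 2.95. S1pr1, the receptor for exit from lymphoid tissue, had 122 TPM and exceeded its antagonist Cd69 (21.5 TPM) by 2.51 on the log2 scale in 8 of 8 libraries (95% interval 2.31 to 2.75, exact sign-flip permutation test, adjusted p = 0.00911). With merged exon length this difference was 4.16. Itgal and Itga4 had 147 and 81.0 TPM, and the remaining receptors were lower, with Ccr2 at 22.7 TPM, Cxcr4 at 21.8 TPM, Itgae at 1.34 TPM and Cx3cr1 at 1.03 TPM. Over a 12-gene naive and memory list, which overlaps these lists, 11 genes had at least 1 TPM in every library and the summed level ran from 763 TPM in library 1 to 1266 TPM in library 5.

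Glycolysis genes were high and showed strong preferences between isozymes. Of 21 genes, 20 had at least 1 TPM in every library and 10 at least 100 TPM, with a median of 121 TPM. Ldha had a lowest, median and highest level of 3689, 4215 and 4832 TPM, and Ldhb, which encodes the isozyme of oxidative tissues, 4.08, 6.22 and 6.95 TPM. The difference of 9.48 on the log2 scale was the widest of the 28 gene pairs compared (95% interval 9.25 to 9.73, exact sign-flip permutation test, adjusted p = 0.00911). Of the hexokinase genes, of which Hk2 is the form usually described as inducible, Hk1 had 92.9 TPM ± 6.88 and Hk2 6.28 TPM ± 0.988, a log2 difference of Hk2 minus Hk1 of -3.88 (95% interval -4.05 to -3.72, exact sign-flip permutation test, adjusted p = 0.00911). Of the phosphofructokinase genes, Pfkp had 268 TPM, Pfkl 121 TPM and Pfkm 4.80 TPM, and Pfkp exceeded Pfkl by 1.16 on the log2 scale (95% interval 0.88 to 1.42, exact sign-flip permutation test, adjusted p = 0.00911), a call that did not hold with merged exon length (0.28, exact permutation test, adjusted p = 0.0567). Aldoa and Tpi1 had 1174 and 925 TPM, Pgk1 520 TPM (with 68.0% of its 50-base stretches also in other genes) and Pkm (pyruvate kinase) 1689 TPM ± 167, while Aldoc had 1.21 TPM.

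The glucose transporters Slc2a3 (GLUT3) and Slc2a1 (GLUT1) were close, with 49.2 TPM ± 6.37 and 38.7 TPM ± 4.00. Slc2a3 was higher in 8 of 8 libraries by transcript length (log2 Slc2a1 minus Slc2a3 -0.34, 95% interval -0.46 to -0.23, exact sign-flip permutation test, adjusted p = 0.00911), but with merged exon length the order reversed (0.66, exact permutation test, adjusted p = 0.00911), so no order of the transporters is given. Of the lactate exporters, Slc16a1 (MCT1) had 82.8 TPM and Slc16a3 (MCT4) 16.7 TPM, a log2 difference of Slc16a3 minus Slc16a1 of -2.35 (95% interval -2.61 to -2.07, exact sign-flip permutation test, adjusted p = 0.00911). The summed level of the list was lowest in library 2 (11671 TPM) and highest in library 6 (14912 TPM).

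**Figure D3:**
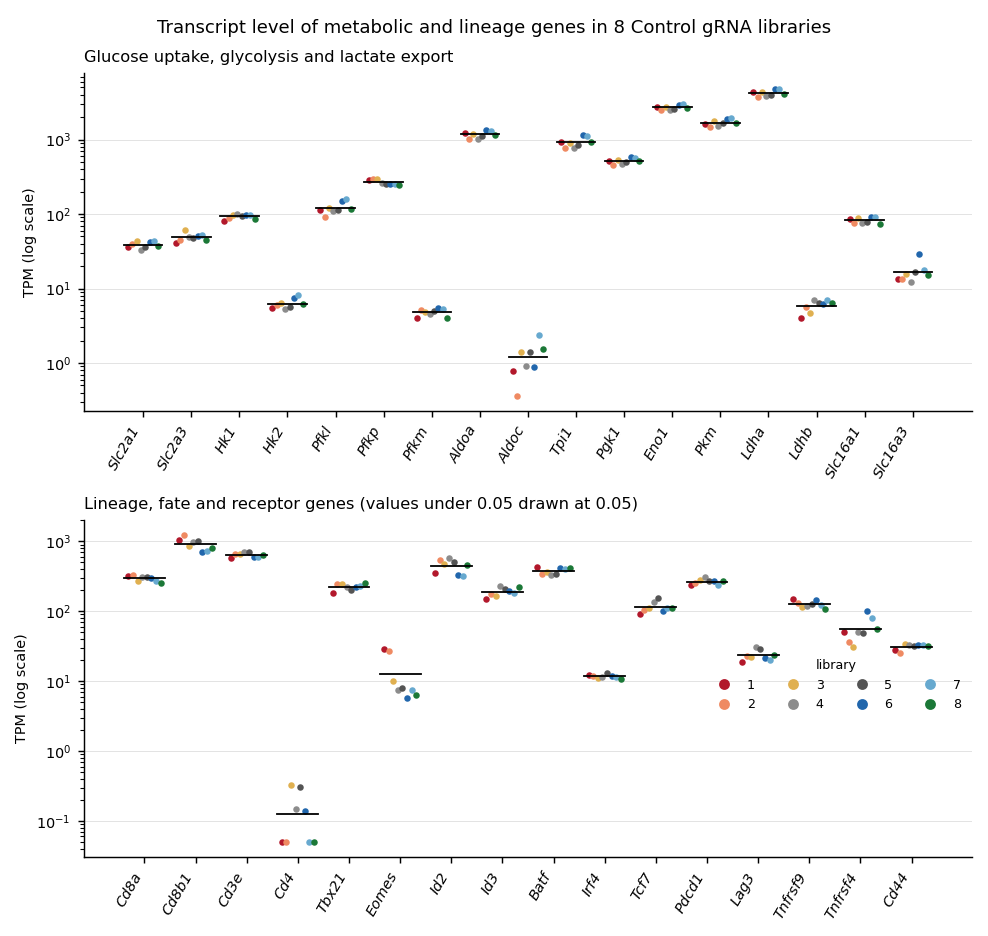
Transcript level (TPM, log axis) of genes of glucose uptake, glycolysis and lactate export (top) and of lineage, fate and receptor genes (bottom), with 1 point for each of the 8 Control gRNA libraries and a line at the mean. Ldha lies at 4249 TPM and Ldhb at 5.91 TPM, Hk1 at 92.9 TPM and Hk2 at 6.28 TPM, and the 2 high points of Eomes are libraries 1 and 2.

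Nuclear genes of oxidative phosphorylation varied little between libraries, but no baseline of equal abundance was used. All 30 exceeded 100 TPM in every library, with a median of 537 TPM and a median coefficient of variation of 3.95%. That value was 11.4% over the 9569 genes, whose median level was 24.8 TPM. It was 7.49% for genes of the mitochondrial genome and 6.46% for the 20 ribosomal protein genes. Atp5b, the catalytic beta subunit of ATP synthase, led with 2531 TPM ± 84.7, and Ndufs1 of complex I was lowest with 155 TPM. The 13 genes of the mitochondrial genome had a median of 1250 TPM, from mt-Nd4l (178 TPM) to mt-Atp6 (2196 TPM), and the levels of mt-Atp6, mt-Co1, mt-Co2, mt-Co3, mt-Nd3 and mt-Nd4l are uncertain because nuclear copies share their sequence. mt-Nd1, on the heavy strand, lay 1.96 above mt-Nd6, the gene of the light strand, on the log2 scale (95% interval 1.88 to 2.04, exact sign-flip permutation test, adjusted p = 0.00911). All 21 genes of the tricarboxylic acid cycle had at least 10 TPM and 17 at least 100 TPM in every library, with a median of 207 TPM, led by Mdh2 (899 TPM) and Sdhb (608 TPM), with Idh2 (27.7 TPM) lowest.

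Lipid genes were more varied. Of 25 genes of fatty acid and cholesterol synthesis, 24 had at least 1 TPM in every library, with a median of 43.2 TPM and a summed level from 1061 TPM in library 1 to 1491 TPM in library 7. Fdps, of the sterol branch, and Acly, which supplies cytosolic acetyl-CoA, had the highest means, 166 TPM ± 33.7 and 159 TPM ± 17.8. Their ranges overlapped, 82.0% of the 50-base stretches of Fdps occur in other genes, and merged exon length gave 76.7 TPM for Fdps and 204 TPM for Acly, so no order is given. At the low end, the desaturase gene Scd1 had 0.479 TPM and Acaca, the first committed enzyme of fatty acid synthesis, 3.90 TPM. Of 16 genes of fatty acid oxidation, 15 had at least 10 TPM in every library, with a median of 70.0 TPM. Cpt1a, the entry enzyme of mitochondrial fatty acid oxidation, had 31.3 TPM and its muscle form Cpt1b 0.0304 TPM, a level that is uncertain because 93.0% of its 50-base stretches also occur in Gm44502, which had 0.619 TPM. Acaca shares 52.6% of its stretches with another gene. Cpt1a exceeded Acaca by 2.97 on the log2 scale in 8 of 8 libraries (95% interval 2.78 to 3.16, exact sign-flip permutation test, adjusted p = 0.00911).

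Genes that feed growth and DNA synthesis were high. All 24 genes of nucleotide and one-carbon synthesis had at least 10 TPM in every library, with a median of 183 TPM, led by Rrm2, the regulated subunit of ribonucleotide reductase, with 1341 TPM ± 57.2, and by Phgdh, the first enzyme of serine synthesis, with 499 TPM ± 34.5, although 63.1% of the 50-base stretches of Phgdh occur in other genes. All 17 genes of amino acid uptake and polyamines had at least 1 TPM, with a median of 46.6 TPM. In that list the polyamine genes Odc1 and Srm varied together with the libraries: Odc1 had 137, 147, 70.1, 72.1, 88.2, 183, 182 and 111 TPM and Srm 192, 172, 101, 108, 123, 211, 214 and 148 TPM in libraries 1 to 8. Both were highest in libraries 6 and 7 and lowest in library 3. Slc3a2, the heavy chain of the large amino acid transporter, and Slc1a5, a glutamine transporter, each had 141 TPM.

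Of 40 cell cycle genes, 39 had at least 1 TPM and 25 at least 100 TPM in every library, with a median of 199.97 TPM. Birc5 (survivin, 910 TPM ± 47.3) and Ube2c (727 TPM ± 67.1) of mitosis and Pcna (738 TPM ± 30.1), Mcm6 (701 TPM ± 31.0) and Mcm5 (665 TPM ± 31.8) of replication led. The D-type cyclin gene Ccnd3 had 554 TPM and exceeded Ccnd2 (60.6 TPM) by 3.20 on the log2 scale in 8 of 8 libraries (95% interval 3.10 to 3.30, exact sign-flip permutation test, adjusted p = 0.00911). With merged exon length this difference was 1.72, so its size depends on the length used. Inhibitors of cyclin-dependent kinases were low, with Cdkn1a at 7.39 TPM, Cdkn1b at 4.23 TPM and Cdkn2a at 0.392 TPM. Cdkn1b was below Cdkn1a in 7 of 8 libraries (log2 difference -0.74, 95% interval -1.08 to -0.36, exact sign-flip permutation test, adjusted p = 0.0175), a call that did not hold over libraries 3 to 8 (-0.73, exact permutation test, adjusted p = 0.0673) or with merged exon length (-0.33, exact permutation test, adjusted p = 0.0859). The 20 ribosomal protein genes had a median of 1258 TPM and exceeded 100 TPM in every library.

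Of 17 genes of the BCL2 family, which set the threshold of mitochondrial apoptosis, 14 had at least 1 TPM in every library and the median was 23.1 TPM. The death effector gene Bax (254 TPM ± 22.3) and the protective genes Bcl2a1b and Bcl2a1d (244 and 217 TPM) were highest, although Bcl2a1a, Bcl2a1b and Bcl2a1d share from 69.0% to 79.5% of their 50-base stretches with other genes. Mcl1, a short-lived protector needed by T cells, had 23.1 TPM ± 4.87 and Bcl2 7.71 TPM ± 1.45. Mcl1 was higher in 8 of 8 libraries, by 1.57 on the log2 scale (95% interval 1.41 to 1.71, exact sign-flip permutation test, adjusted p = 0.00911). Bcl2l2 and Bmf had 0.173 and 0.110 TPM, and Hrk was listed at 0 in every library.

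Taking the 28 gene pairs as a family, 25 were called at an adjusted p under 0.05 by the exact sign-flip test, for which 8 libraries give a smallest p of 0.0078125. The test asks only whether different genes have equal levels. The share called among other gene pairs was not computed, so the count says nothing particular about these pairs. The plot of gene pairs shows the log2 differences. In 24 pairs the difference had the same sign in every library. The intervals cover the spread between libraries and not the choice of length. With merged exon length some means fell outside their interval, such as -2.16 for Cd8a minus Cd8b1 and -2.97 for Hk2 minus Hk1. Others stayed inside, such as 3.59 for Pdcd1 minus Lag3.

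**Figure D4:**
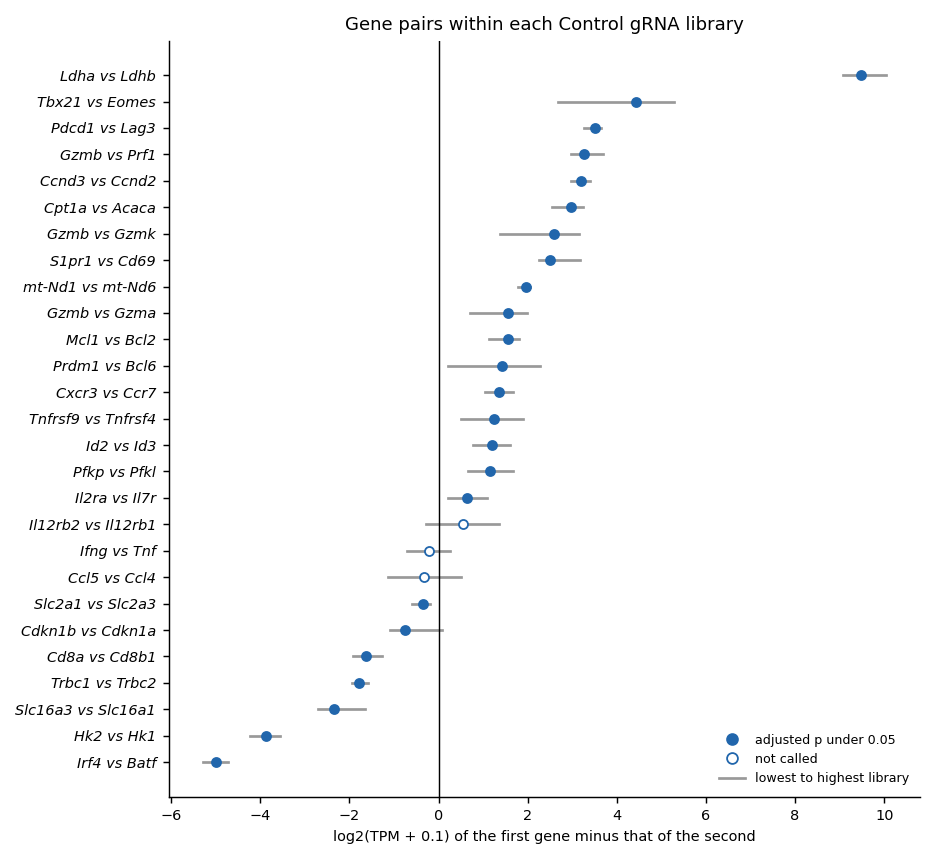
Difference in log2(TPM + 0.1) between the genes of 27 of the 28 pairs within a library, the first gene minus the second. Points are means over the 8 Control gRNA libraries, grey lines run from the lowest to the highest library, and open points mark the 3 pairs that were not called. The means run from -4.995 (Irf4 and Batf) to 9.48 (Ldha and Ldhb), and the grey lines of Ifng and Tnf, Ccl5 and Ccl4, Il12rb2 and Il12rb1, and Cdkn1b and Cdkn1a cross 0.

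Leading transcripts were stable for most genes. Among 9857 genes with more than 1 annotated transcript and a mean of at least 100 estimated counts, the same transcript led in all 8 libraries in 6945 (70.5%). The leading transcript held a median share of 0.809 of its gene's TPM. Its share exceeded 0.9 in 3596 genes (36.5%) and was under 0.5 in 1482 (15.04%). Of 9507 protein-coding genes among them, the leader was annotated as protein-coding in 9028 (94.96%), as a retained intron in 207 (2.18%), as a target of nonsense-mediated decay in 183 (1.92%) and as a processed transcript without a reading frame in 88 (0.926%). The leader was chosen on these values, so they are a description without a test.

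For Gzmb, Cd8b1, Tbx21 and Mcl1 the share was 1 in every library. Such a share is fixed in advance where only 1 transcript is annotated, so nothing is drawn from it. Several other effector and lineage genes had a clear leader. Runx3-201 held 0.968 of its gene's TPM, Stat4-201 0.958, Tcf7-201 0.953, Il2ra-201 0.952, and Prf1-202 0.857. Cd44-203, with 9 exons, held 0.792 ± 0.044 (SD, n = 8) and the 19-exon Cd44-201 0.164. Ikzf1-204 held 0.596 ± 0.086 of Ikaros, Lck-202 0.640 ± 0.088, Fyb-201 0.478 and Lef1-201 0.471 with Lef1-203 at 0.380. For the survival gene Bcl2l1 the leader changed between libraries, with Bcl2l1-202 at 0.521 ± 0.194 and Bcl2l1-201 at 0.442 ± 0.200. The most evenly divided genes at 50 TPM or more were the chromatin remodeller gene Atrx, Rsrc2, the exchange factor gene Arhgef2, Arhgap4 and 3830406C13Rik, whose leading transcripts held 0.215, 0.217, 0.223, 0.235 and 0.236.

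Pyruvate kinase was almost entirely of the M2 form. Pkm-201, which carries the exon of PKM2, the form of proliferating cells, held 0.969 ± 0.017 of the Pkm level and Pkm-202, with the exon of PKM1, 0.025 ± 0.017. Inclusion of the M2 exon, rebuilt as the share of TPM in transcripts that span it, had a lowest, median and highest value of 0.932, 0.981 and 0.983. Library 8 was the lowest and the other 7 lay between 0.979 and 0.983. The mutually exclusive exons, both number 9 of 11 and wholly coding, are shown because they set this difference. M1 lies at chr9:59675029-59675195 and M2 at chr9:59675568-59675734 on the plus strand of GRCm38, each with 167 bases, and the capitals mark the 64 bases at which they differ (61.7% identity).
Pkm exon M1: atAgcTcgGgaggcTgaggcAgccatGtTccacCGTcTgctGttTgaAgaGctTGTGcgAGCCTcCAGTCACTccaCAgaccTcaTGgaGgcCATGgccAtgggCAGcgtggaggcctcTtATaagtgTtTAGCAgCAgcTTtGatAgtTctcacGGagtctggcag
Pkm exon M2: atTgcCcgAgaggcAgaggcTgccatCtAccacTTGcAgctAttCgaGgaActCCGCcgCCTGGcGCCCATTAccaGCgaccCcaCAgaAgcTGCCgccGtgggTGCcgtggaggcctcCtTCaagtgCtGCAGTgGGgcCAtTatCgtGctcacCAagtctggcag
The differing bases lie along the whole exon, so that reads of either exon can be told apart, although 34.4% of the 50-base stretches of Pkm-201 occur in other annotated genes.

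Hnrnpll, a splicing repressor of the variable exons of Ptprc (CD45) in activated T cells, was split between a productive and an unproductive transcript. Hnrnpll-203, annotated as a target of nonsense-mediated decay, held 0.489 ± 0.062 of the level and the protein-coding Hnrnpll-205 held 0.456 ± 0.060. The exon that Hnrnpll-203 alone carries, number 7 of 14, had an inclusion of 0.497 ± 0.0623, from 0.424 in library 3 to 0.613 in library 1. It lies at chr17:80044940-80045022 on the minus strand of GRCm38, and 44 of its 83 bases are annotated as coding. The sequence is shown because it holds the early stop, the annotated stop codon TGA in capitals.
Hnrnpll exon: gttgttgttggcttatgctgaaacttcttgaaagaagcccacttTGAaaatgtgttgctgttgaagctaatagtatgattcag
Srsf3, a splicing factor known to regulate its own transcript through such an exon, had an inclusion of its exon 4 in Srsf3-201 from 0.0450 in library 5 to 0.528 in library 6, with a median of 0.113, while the gene level differed less, from 516 to 622 TPM.

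As reads were divided by the authors, CD45 isoform shares differed between libraries more than the CD45 level. Ptprc had 588 TPM ± 58.0, and 211 TPM with merged exon length. Ptprc-203, which lacks the variable exons, held 0.289 ± 0.058 of the Ptprc level, and Ptprc-207, which has them, 0.184 ± 0.178. The retained-intron transcript Ptprc-201 held 0.176. Ptprc-204 held 0.278 to 0.396 in libraries 3, 6 and 8, where Ptprc-207 held at most 0.00778. In the others Ptprc-204 held at most 0.0358. Inclusion of exons 4, 5 and 6 of Ptprc-207 had medians of 0.242, 0.423 and 0.240. Exon 4 had 0.584 and 0.564 in libraries 2 and 7 and at most 0.0114 in libraries 3, 6 and 8, with the other 3 between 0.204 and 0.369. These values come from the authors' division of reads among long transcripts that differ in a few short exons and were not measured from junction reads here.

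**Figure D5:**
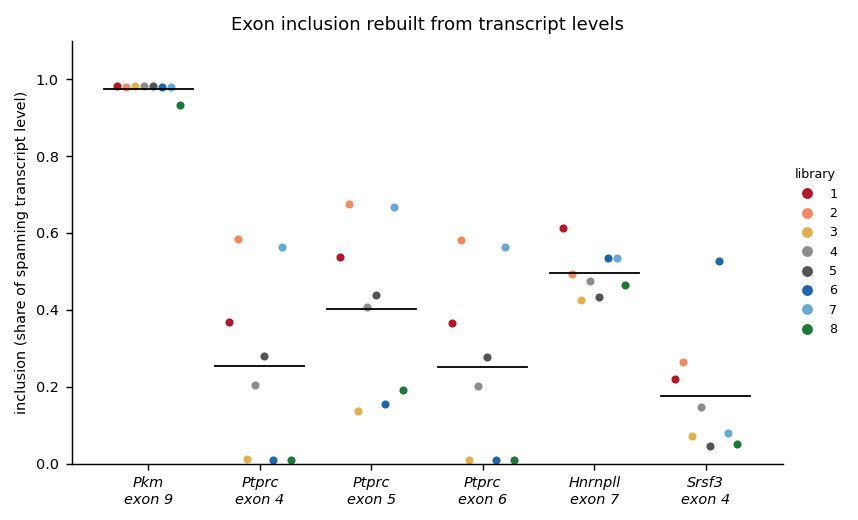
Inclusion of 6 exons (share of the TPM of the transcripts that span the exon, from 0 to 1) in each of the 8 Control gRNA libraries (points) with the mean (line). Pkm exon 9 (M2) lies at 0.975 with library 8 at 0.932, Hnrnpll exon 7 at 0.497, and the Ptprc exons 4 and 6 run from 0.00862 to 0.584 and from 0.00857 to 0.581.

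Between libraries, the common biological coefficient of variation was 0.191 over 14244 genes in an edgeR fit without covariates, and the median of genewise values was 0.109 at 10 CPM or more. For Cd3e the value was 0.0806 beside a trend of 0.0924 for genes of its abundance, and for Ldha 0.0964 beside 0.0905. The 10 genes with the widest spread against their trend fell into groups. Ly6c2, a surface antigen of activated and memory CD8 T cells, had 1795, 1284, 813, 530, 607, 409, 474 and 442 TPM in libraries 1 to 8, and without libraries 1 and 2 its mean of 794 TPM became 546 TPM. Ctla2a, a cathepsin inhibitor of activated T cells, had 245 and 149 TPM in libraries 1 and 2 and between 29.2 and 69.3 TPM in the others, and its mean of 81.4 TPM became 42.9 TPM without them. Samd3 had 31.7 and 25.1 TPM in libraries 1 and 2 and between 2.93 and 7.43 TPM in the others, with means of 10.9 and 5.06 TPM over all libraries and over libraries 3 to 8. Gzmk, given above, was the remaining gene of this kind. In these 4 genes libraries 1 and 2 were the highest, as they were for Eomes and Klrk1.

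Cd74, the invariant chain of MHC class II, showed another order, with 116, 129, 187, 166, 212, 413, 416 and 242 TPM in libraries 1 to 8. Libraries 1 and 2 were lowest and libraries 6 and 7 highest. The other 5 genes, Gm28036, Gm43305, AC124502.3, Commd5 and Rnf26, share from 59.9% to 99.2% of their 50-base stretches with other annotated genes, so their values are uncertain wherever reads were divided among copies. Rnf26, for example, had 54.7, 61.4 and 57.3 TPM in libraries 4, 6 and 7 and at most 21.6 TPM in the others.

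Whether the letter M or F that the deposited annotation gives each library, or its RNA concentration, went with this spread was tested over all genes. Libraries 1, 4 and 5 carried M and the other 5 F. The deposited column of the letter is headed sex, with no further legend to say whether donor or recipient is meant. RNA of the Y-linked genes was present in every library, with Eif2s3y from 25.4 to 58.5 TPM and Ddx3y from 7.26 to 17.5 TPM, and Xist, which silences the second X chromosome of females, was at 1.14 to 3.45 TPM, so the letter did not separate the libraries by RNA of sex-linked genes. Of 14244 genes tested by edgeR's quasi-likelihood test, 0 differed between M and F (0% called), 684 had an unadjusted p under 0.05, and DESeq2 called 15, of which 6 were higher and 9 lower in M. Xcl1 was among the 15, with 293 to 310 TPM in the M libraries and 148 to 234 TPM in the F libraries without overlap, a log2 difference of 0.71 (edgeR adjusted p = 0.782, DESeq2 adjusted p = 0.00116). Prr5, which encodes a subunit of mTORC2, had 21.6 to 23.4 TPM in M and 26.1 to 40.6 TPM in F and was also called by DESeq2 (adjusted p = 0.00553). edgeR called Prr5 without library 2 (adjusted p = 0.0408) and over libraries 3 to 8 (adjusted p = 0.0343), where only libraries 4 and 5 carry M. Nt5e and Fgl2 were called there too (edgeR adjusted p = 0.0343), higher in M. Over all libraries the M and F ranges of both overlapped (edgeR adjusted p = 0.993 for each). The deposited RNA concentration ran from 34.9 in library 8 to 197.1 in library 1, with no unit. Of 14244 genes, 0 were called by edgeR (0% called), 758 had an unadjusted p under 0.05, and DESeq2 called 4, with Clk1 and S1pr4 lower and Rgs16 and Atg4a-ps higher at a higher concentration. The 684 and 758 genes with an unadjusted p under 0.05 were near the number that this threshold gives by chance.

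Markers of other cells were measured beside these results. Of 10 B cell genes, 5 had at least 1 TPM in every library, and their sum ranged from 585 to 976 TPM, of which Ighm (408 TPM ± 25.2), Cd74 (235 TPM), Igkc (54.0 TPM) and H2-Ab1 (45.1 TPM) made up the most. The defining B cell genes Cd79a and Ms4a1 had 0.745 and 0.190 TPM, whereas Cd79b, the partner of Cd79a in the B cell receptor, had 9.17 TPM with a range from 7.48 to 11.9 TPM, and Ebf1 and Pax5 0.00742 and 0.000659 TPM. H2-Ab1, like Cd74, was lowest in libraries 1 and 2 (18.9 and 19.9 TPM) and highest in libraries 6 and 7 (77.6 and 88.8 TPM). Of 10 myeloid genes, 4 had at least 1 TPM, with sums from 31.0 to 60.7 TPM, Lyz2 from 4.76 to 27.8 TPM and Cd14 at 0.0755 TPM. Of 6 NK cell genes, 3 had at least 1 TPM, with sums from 9.44 to 24.2 TPM, Ncr1 at 0.859 TPM and Klra8 at 0 in every library. In libraries 1 and 2, which were highest for Gzmk, Klrk1 and Eomes, these sums were 19.5 and 22.7 TPM, while library 4 had the highest. Klre1, the highest gene of the NK list, had 9.64 and 13.2 TPM in libraries 1 and 2 and between 3.98 and 6.46 TPM in the others, so it was high in the same libraries as Gzmk, Klrk1 and Eomes. In library 4 the sum came mostly from the adaptors Tyrobp (10.003 TPM) and Fcer1g (7.02 TPM), which myeloid cells share, and the myeloid sum was also highest there. Of 4 CD4 T cell genes, 2 had at least 1 TPM, with sums from 2.59 to 17.3 TPM, mostly Cd40lg (7.16 TPM) and Zbtb7b (3.87 TPM), and Foxp3 at 0.109 TPM. The 7 red cell genes summed to 1.20 to 42.7 TPM and the 5 platelet genes to 0.252 to 3.20 TPM. The share of such cells in the differences between libraries was not tested.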

How the data were processed

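Total RNA had been amplified with the SMART-Seq v4 kit, made into Nextera XT libraries and read over 100 bases from both ends. Per the labels and the submitters' processing notes, the authors used HISAT2 2.1.0, SAMtools 1.9 and StringTie 2.1.0 with the build mm10, and R 4.0.5 with DESeq2 1.30.1. The deposited estimated counts per gene and per transcript were whole numbers without normalization, and transcripts added up to their gene for each of 55536 annotated genes. There were 36831814 to 46373620 read pairs per library and 1.97 to 2.02 estimated counts for each, so counts are not independent molecules. Identifiers without a gene, with 0.0836% to 0.132% of the counts, were left out, and 10 further columns, which name no sample analysed here, were set aside. The RNA concentration and the letter of each library came from deposited annotation. Percent spliced in values that the authors gave per group were not used.

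TPM was computed per transcript from the estimated count and the transcript's length in GENCODE M21 (GRCm38). Differences within gene pairs were taken as log2(TPM + 0.1) and tested over the 8 libraries with an exact two-sided sign-flip permutation test, with Benjamini-Hochberg adjustment over 28 pairs and 95% intervals from inverting the test (Python 3.11.15, SciPy 1.17.1). The letter and the log2 RNA concentration were tested by the two-sided quasi-likelihood test of edgeR 4.0.16 in R 4.3.3 (TMM, filterByExpr with minimum count 10, total 15 and proportion 0.7), at a Benjamini-Hochberg adjusted p under 0.05. DESeq2 1.42.0 was an alternative. The scripts were tested on simulated data. Exon inclusion was the TPM of transcripts with the exon over that of transcripts that span it. Genes of the lists on lineage, TCR, granule, cytokines, fate factors, receptors and homing could be named, as could the 6 highest and 3 lowest of each other list, the members of pairs, the 20 most abundant genes, the 10 with the widest spread at 10 CPM or more, and the genes listed for isoforms with the 5 most evenly divided. Prr5, Nt5e, Fgl2, Clk1, S1pr4, Rgs16, Atg4a-ps and Gm44502 were named after their values were seen. The libraries, gene lists and pairs were chosen with earlier results of these data known. A few genes are not reported here, among them 1 member of a pair.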

Additional observations from a re-analysis of the deposited data

Results flagged for a closer look

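In a group of 8 values, a library was taken as far from the others when its gap to the nearest library over the whole range exceeded Dixon's critical value. Of 304 such groups, 18 held a far library, and chance flags about 1 in 20 groups, which gives 15.2, so the number itself is near that of chance. The far values are given without an explanation.

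Library 2 was far from the others for 5 genes: Klf2, a quiescence factor, with 120.8 TPM (others 43.7 to 75.7), Runx3 with 49.7 TPM (33.8 to 39.0), Mcl1 with 34.1 TPM (18.7 to 24.8), Il15ra with 16.3 TPM (13.1 to 14.5) and Foxo1 with 6.06 TPM (3.47 to 4.23). Library 1 was far for the sum of the 20 ribosomal protein genes with 29446 TPM (others 24864 to 27021), for the inhibitory receptor gene Tigit with 19.4 TPM (8.20 to 12.8), for Qk with 2.97 TPM, and for the number of genes at 1 TPM or more, 12365 beside 12573 to 12759.

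Library 3 was far for the immunoglobulin gene Ighm with 462 TPM (others 380 to 414) and for Serpinb6b with 148 TPM (106 to 122). Library 4 was far for Srsf7 with 786 TPM (585 to 680), Tox with 34.7 TPM (25.6 to 29.3) and Tyrobp, an adaptor of NK and myeloid cells, with 10.003 TPM (1.80 to 4.67). Library 6 was far for the lactate exporter gene Slc16a3 with 29.2 TPM (12.2 to 17.9), for Cd68, a gene of macrophages, with 6.37 TPM (10.5 to 13.8) and for the inclusion of Srsf3 exon 4 at 0.528 (0.0450 to 0.265). Library 8 was far for the inclusion of Pkm exon 9, the M2 exon, at 0.932 beside 0.979 to 0.983. The gap of Pkm covered 0.926 of the range, the widest of the 18.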

How the results depend on the processing

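No paired analysis was possible because the libraries that share replicate numbers belong to the group that is not compared here. Of the pair results, the 224 without 1 library each and the 56 with a pseudocount of 0.01 or 1 TPM kept their call. Merged exon length reversed Slc2a1 against Slc2a3 (0.66), gained 3 calls and lost 2, for 26 pairs in all. It moved the level of 112 of 322 named genes over 1.5 times (rank correlation across genes 0.988), such as Rps24 from 557 to 134 TPM and Klrk1 from 206 to 71.4 TPM. The total to which levels are scaled changed as well. Gzmb (from 312 to 485 TPM), Tbx21, B2m and Trbc2 each rose by the same 1.56 times, so part of the 112 moves is a common rescaling and not the gene's own length. The median over 305 named nuclear genes was 64.2 TPM, 74.0 TPM with the total over nuclear protein-coding genes, from 58.1 TPM (without library 1) to 64.4 TPM with a library left out, and 59.1 TPM over libraries 3 to 8, an alternative chosen after the data were seen. For the letter, DESeq2 called 15 genes in place of 0, leaving out a library gave 0 to 1 (1 without library 2) and libraries 3 to 8 gave 3. For RNA concentration DESeq2 called 4 in place of 0. The common coefficient of variation of 0.191 was 0.376 without a filter on low counts, 0.178 over libraries 3 to 8, and 0.185 to 0.197 with a library left out. Genes at 1 TPM or more in every library numbered 11517 (from 10419 at 2 TPM to 12555 at 0.5 TPM) and genes with a stable leading transcript 6945 (from 6042 at 500 counts to 7273 over libraries 3 to 8). The causes were not tested. Low genes, exon shares of long transcripts and genes with near-identical copies are limited by counting and by the division of reads, and the 8 libraries cannot give an adjusted pair p under 0.0078125.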
